A study of Homo sapiens with 4 samples.

Results

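The 54 genes described here are host genes of microRNAs and of small nucleolar RNAs (snoRNAs), read out in A549 cells, a human lung adenocarcinoma line. They were chosen by symbol and depth: the row is named MIR-something-HG without a hyphen, SNHG with a number, or GAS5, and it holds 20 or more counts summed over the 4 libraries. Of 28278 genes in the deposited table, 56 rows matched the microRNA host pattern and 29 the snoRNA host pattern; 27 of each passed the limit. In the microRNA class 25 rows were at 0 in every library and 4 held 1 to 19 counts, while in the snoRNA class SNHG18 and SNHG27 were at 0. Just inside the limit were MIR302CHG with 20 counts and MIR181A1HG with 25, and just outside were MIR3681HG with 10 and MIR133A1HG with 9.

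Total RNA was sequenced from 2 stable lentiviral lines: a control line (labelled WT, carrying a control construct, 2 libraries) and a line overexpressing CBX7 (labelled OE_CBX7, 2 libraries). CBX7 is a chromobox subunit of Polycomb repressive complex 1 that binds methylated histone tails. Nothing in the labels says that the libraries of a group came from separate cultures, so every p-value here rests on a spread between libraries that may be only technical. The groups differ in the whole stable line, so the CBX7 construct and any other difference between the lines cannot be told apart.

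A host gene is transcribed as a long precursor whose introns or exons carry small RNAs. Drosha and Dicer cut microRNA hairpins out of the precursor, whereas most snoRNAs are trimmed from spliced introns and then guide ribose methylation (box C/D) or pseudouridylation (box H/ACA) of ribosomal and small nuclear RNA. The spliced host RNA that remains is often short-lived, and for several SNHG genes it is degraded during translation by nonsense-mediated decay. The level of a host transcript therefore need not follow the level of the small RNA it carries.

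The microRNAs carried by the hosts whose transcripts changed (MIR100HG, MIR34AHG and MIR4453HG) are shown first. Those of MIR99AHG and MIRLET7BHG, whose changes did not pass the test, are added because they share seeds with MIR100HG. A seed is bases 2 to 8, through which a microRNA pairs with its targets. MIR100HG lies at chr11:122028329-122422871 on the minus strand and holds let-7a-5p (chr11:122146568-122146589), miR-100-5p (chr11:122152275-122152296) and miR-125b-5p (chr11:122099809-122099830). MIR99AHG on chromosome 21 is its counterpart, holding let-7c-5p, miR-99a-5p and a further copy of miR-125b-5p, and MIRLET7BHG on chromosome 22 holds let-7b-5p and another let-7a-5p. MIR34AHG (chr1:9148011-9182338, minus strand) holds miR-34a-5p at chr1:9151735-9151756, and MIR4453HG (chr4:152536264-152539263, plus strand) holds miR-4453 at chr4:152536432-152536451. Sequences and positions are from RefSeq, build GRCh38.p14, and capitals mark the seed.
let-7a-5p: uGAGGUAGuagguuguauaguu
let-7c-5p: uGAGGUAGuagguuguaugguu
let-7b-5p: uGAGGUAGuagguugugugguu
miR-100-5p: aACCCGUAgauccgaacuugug
miR-99a-5p: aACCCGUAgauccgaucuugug
miR-125b-5p: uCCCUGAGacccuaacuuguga
miR-34a-5p: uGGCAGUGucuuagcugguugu
miR-4453: gAGCUUGGucuguagcgguu
The let-7 members share the seed GAGGUAG, and miR-100-5p and miR-99a-5p share ACCCGUA, so MIR100HG and MIR99AHG carry the same 3 seeds among these. The seeds of miR-34a-5p and miR-4453 are each carried by 1 of the sequences listed.

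The snoRNAs of the changed hosts are mostly of the box C/D kind, as the following from SNHG1 (SNORD27 and SNORD30), SNHG32 (SNORD48 and SNORD52), SNHG19 (SNORD60) and SNHG14 (SNORD116-1 and SNORD116-2) show. They are GENCODE 29 transcript sequences, and capitals mark a box C (TGATGA and the base before it) and a box D (CTGA) that a search found.
SNORD27: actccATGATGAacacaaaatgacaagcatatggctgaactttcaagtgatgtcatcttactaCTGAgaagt
SNORD30: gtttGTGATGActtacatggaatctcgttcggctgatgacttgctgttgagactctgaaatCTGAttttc
SNORD48: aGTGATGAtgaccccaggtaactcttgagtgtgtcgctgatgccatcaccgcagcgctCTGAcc
SNORD52: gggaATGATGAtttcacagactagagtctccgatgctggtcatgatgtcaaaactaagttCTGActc
SNORD60: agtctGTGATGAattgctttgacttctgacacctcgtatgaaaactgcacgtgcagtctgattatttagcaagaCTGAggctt
SNORD116-1: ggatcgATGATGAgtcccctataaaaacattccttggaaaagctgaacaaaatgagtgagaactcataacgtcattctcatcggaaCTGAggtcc
SNORD116-2: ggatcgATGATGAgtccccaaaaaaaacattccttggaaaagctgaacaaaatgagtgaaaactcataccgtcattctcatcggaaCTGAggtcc
The SNORD116 sequences are near-identical copies in the same host, so reads from one copy could be counted for another; how shared reads were counted is not given in the sources used here.

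The libraries held 69877585 to 90765502 counts and 19678 to 20379 genes with a count. CBX7 itself was measured at 7.999 and 8.73 CPM (the depth-normalised read count) in the controls and at 19.0 and 17.2 in the OE_CBX7 libraries, a log2 fold change of 1.11 (SE 0.16, edgeR adjusted p = 0.000141). The epithelial keratins KRT8 and KRT18 were abundant, the alveolar surfactant genes SFTPB and SFTPC held 12 and 23 counts over the 4 libraries, and EPCAM stayed between 0.650 and 1.61 CPM. Of 10 epithelial and lung line markers, 8 were tested, and 2 were called higher and 1 lower in OE_CBX7. AKR1B10 (log2 fold change 0.57, SE 0.11, edgeR adjusted p = 0.00136) and NKX2-1 (1.61, SE 0.56, edgeR adjusted p = 0.0489) were higher. KRT7 was lower (-0.29, SE 0.091, edgeR adjusted p = 0.0342). Summed leukocyte markers, all 6 in the table, ran from 159 to 166 CPM in the controls and from 26.3 to 26.8 in OE_CBX7, most of it CD68, while PTPRC held 15 counts and CD3E was at 0. CD14, the other leukocyte marker deep enough to test, was higher in OE_CBX7 (1.25 and 1.36 CPM against 3.09 and 2.52; log2 fold change 1.10, SE 0.34, edgeR adjusted p = 0.0299); whether these bear on the host genes was not tested. Summed fibroblast markers were at 5.31 and 8.02 CPM in the controls and 8.47 and 7.74 in OE_CBX7. Summed endothelial markers were at 1.65 and 0.894 CPM against 3.44 and 3.75, with CDH5 called higher (log2 fold change 1.73, SE 0.42, edgeR adjusted p = 0.00868); the part of these in the host results was not tested. In these bulk libraries, fewer cells expressing a gene and less RNA of it per cell cannot be told apart.

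Of the 54 members, 52 were deep enough to test, and 10 changed between the lines. Among the 27 tested snoRNA hosts, 2 rose (SNHG14 and SNHG19) and 5 fell (GAS5, SNHG1, SNHG32, SNHG15 and SNHG12), against 24.4% of all 17271 tested genes called in either direction, 10.5% called higher and 13.9% called lower. In the microRNA class 3 of 25 tested hosts fell (MIR100HG, MIR4453HG and MIR34AHG) and 0 rose by edgeR at an adjusted p under 0.05; 2 were higher at an unadjusted p under 0.05, DESeq2 called 0 higher and limma-voom 1. The called share was 25.9% of the snoRNA hosts and 12.0% of the microRNA hosts, the first close to the 24.4% over all genes. Since each called microRNA host fell, 12.0% is also that class's lower share, near the 13.9% called lower over all genes. Whether the called shares of the 2 classes differ was not tested. The snoRNA hosts called higher numbered 1 without control library 1, OE_CBX7 library 1 or OE_CBX7 library 2, and those called lower numbered 3 without control library 2 or OE_CBX7 library 1. Among microRNA hosts, 1 was called higher without control library 2 or without OE_CBX7 library 1.

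Median log2 fold changes were -0.079 over the tested microRNA hosts and -0.094 over the snoRNA hosts, beside -0.00015 over all tested genes. The spread was wider in the microRNA class, from -1.87 to 1.19, than among the snoRNA hosts, from -1.82 to 0.73, and its rows were thinner, with 20 to 6303 counts summed over the libraries against 147 to 124031. The 2 lines did not overlap in CPM for 16 of the 25 tested microRNA hosts, 6 with OE_CBX7 above and 10 with control above. For the 27 tested snoRNA hosts the number was 19, 5 with OE_CBX7 above and 14 with control above. Over all tested genes, 62.8% did not overlap. Summed over the class, snoRNA hosts reached 1513 and 1600.0 CPM in the controls and 1346 and 1431 in OE_CBX7. MicroRNA hosts summed to 99.7 and 93.7 CPM in the controls and to 89.8 and 91.3 in OE_CBX7. The sum over all genes was also lower in OE_CBX7, through the library scaling: 969322 and 985063 CPM against 1022650 and 1024100. As a share of all counts, snoRNA hosts held 0.148% and 0.156% in the controls and 0.139% and 0.145% in OE_CBX7, without overlap. The microRNA host shares overlapped, at 0.00975% and 0.00915% against 0.00926% and 0.00927%. With OE_CBX7 library 2 left out, the class medians moved to 0.085 for the microRNA hosts and -0.23 for the snoRNA hosts. The plot of fitted changes shows every tested member of both classes with its error.

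**Figure D1:**
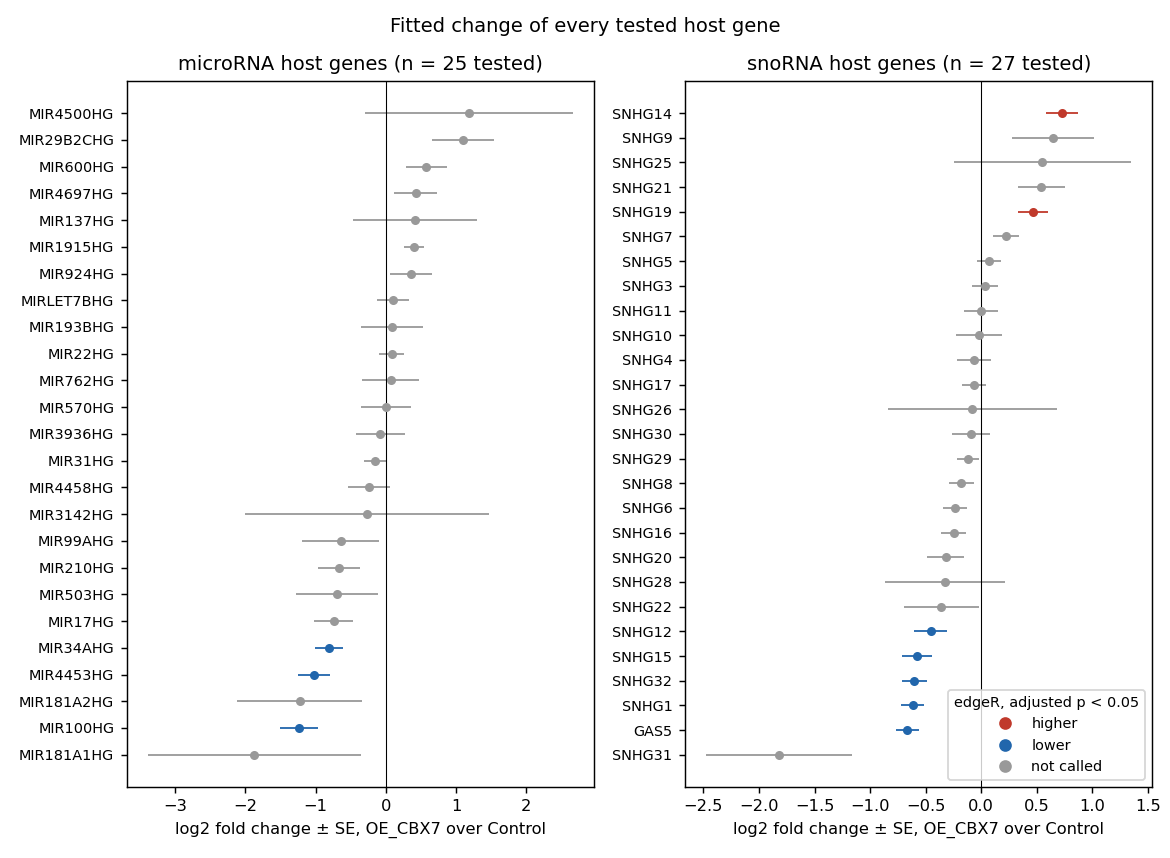
Fitted log2 fold change of OE_CBX7 over control (x axis) for each of the 25 tested microRNA hosts (left) and 27 tested snoRNA hosts (right); points are edgeR estimates from 2 libraries per group, lines are ± SE, and colour marks the call. The 3 called microRNA hosts all lie below 0, the snoRNA class has 2 called above and 5 called below, and the x axes differ between the panels.

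MIR100HG was the called member with the largest change. Its transcript measured 4.76 and 5.06 CPM in the controls and 2.23 and 1.94 in OE_CBX7. Both OE_CBX7 libraries lay below the controls with a gap wider than the spread within either line. It fell 2.35-fold, from 4.91 ± 0.210 to 2.09 ± 0.207 CPM (SD, n = 2; log2 fold change -1.23, SE 0.27, edgeR adjusted p = 0.00451). The call held in each of the 4 fits that left out 1 library. Inside its span lies BLID, on the same strand, whose counts were 17 and 0 in the control line and 7 and 0 in OE_CBX7, too few to test. MIR99AHG, the host with the same seeds, was named after its value was seen: it measured 1.03 and 0.821 CPM in the controls and 0.523 and 0.665 in OE_CBX7 (log2 fold change -0.64, SE 0.55, edgeR adjusted p = 0.446), which was not called.

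MIR4453HG fell too, and so did the gene whose start lies beside it. The host measured 8.14 and 7.05 CPM in the controls and 3.39 and 4.11 in OE_CBX7. That is a 2.03-fold fall from 7.59 ± 0.770 to 3.75 ± 0.514 CPM (SD, n = 2; log2 fold change -1.02, SE 0.23, edgeR adjusted p = 0.00480), called in each of the 4 fits without 1 library. FBXW7, which encodes the substrate-binding subunit of a ubiquitin ligase that targets MYC and cyclin E, begins 172 bp away on the opposite strand. FBXW7 measured 31.0 and 23.2 CPM in the controls and 13.2 and 14.5 in OE_CBX7 (log2 fold change -0.97, SE 0.16, edgeR adjusted p = 0.000509). Neither gene overlapped between the lines. The spans of the 2 genes do not overlap in RefSeq.

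The window around the MIR4453HG start is printed because it also holds the start region of FBXW7. It covers chr4:152536014-152536313 of GRCh38.p14 on the plus strand, 250 bases before the RefSeq start and 50 from it, and capitals mark TGACG, the core of a cyclic AMP response element.
MIR4453HG start window: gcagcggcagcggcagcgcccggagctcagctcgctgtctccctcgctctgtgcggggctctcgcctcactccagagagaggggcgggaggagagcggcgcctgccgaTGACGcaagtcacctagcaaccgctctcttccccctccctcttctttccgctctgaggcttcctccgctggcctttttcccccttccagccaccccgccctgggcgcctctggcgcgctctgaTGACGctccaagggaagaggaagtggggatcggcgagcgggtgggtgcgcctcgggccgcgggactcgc
TGACG was searched on both strands and occurs here on the host's strand at -142 and at -19 from the start. The same letters were found in 5 of 24 microRNA host windows, 7 of 23 snoRNA host windows and 25.01% of 27305 RefSeq windows of the same length, and in 32.21% of the windows of tested genes. A match is a description of the sequence and not a binding site.

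MIR34AHG, the host of the p53-responsive miR-34a, measured 11.8 and 9.25 CPM in the controls and 5.70 and 6.33 in OE_CBX7. The lines did not overlap, although the controls were spread more widely than the OE_CBX7 libraries. It fell 1.75-fold, from 10.5 ± 1.83 to 6.02 ± 0.443 CPM (SD, n = 2; log2 fold change -0.81, SE 0.20, edgeR adjusted p = 0.00899). Without control library 1 the log2 fold change was -0.62 (SE 0.22), and without OE_CBX7 library 1 it was -0.73 (SE 0.28). The call was lost in both fits, and whether through fewer libraries or through their values was not tested. LNCTAM34A, an antisense transcript that starts 134 bp away and overlaps the host, measured 1.06 and 0.469 CPM in the controls and 0.502 and 0.421 in OE_CBX7 (log2 fold change -0.73, SE 0.65, edgeR adjusted p = 0.473). Strandedness is not given in the sources used here, so reads of overlapping genes cannot be told apart.

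GAS5 had the smallest adjusted p of all members. It encodes a growth-arrest transcript whose introns carry box C/D snoRNAs, at chr1:173863901-173869045 on the minus strand. Its level was 142 CPM in both controls, and 86.0 and 93.0 in OE_CBX7. It fell 1.58-fold, from 142 ± 0.425 to 89.5 ± 4.95 CPM (SD, n = 2; log2 fold change -0.66, SE 0.10, edgeR adjusted p = 0.000315). The controls were nearly equal, and the gap between the lines was about as wide without any 1 library (log2 fold change -0.71 to -0.61). ZBTB37, which overlaps GAS5 from the opposite strand, measured 15.6 and 16.1 CPM in the controls and 16.2 and 14.4 in OE_CBX7 (log2 fold change -0.053, SE 0.15, edgeR adjusted p = 0.848), and its fitted change turned to 0.015 with libraries scaled by their totals. The overlapping antisense gene GAS5-AS1 was at 0.396 to 1.12 CPM and was not called (edgeR adjusted p = 0.669).

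SNHG1, which carries SNORD22 and SNORD25 to SNORD31 on chr11:62851978-62855885, fell by a like amount. It measured 143 and 129 CPM in the controls and 87.8 and 89.6 in OE_CBX7. The change was 1.53-fold, from 136 ± 10.3 to 88.7 ± 1.32 CPM (SD, n = 2; log2 fold change -0.62, SE 0.10, edgeR adjusted p = 0.000705). SLC3A2, the heavy chain of amino acid transporters, starts 224 bp away on the opposite strand and measured 771 and 828 CPM in the controls and 689 and 755 in OE_CBX7. It was not called (log2 fold change -0.15, SE 0.10, edgeR adjusted p = 0.308), whereas SNHG1 was; the difference between the 2 genes was not tested.

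SNHG32, the host of SNORD48 and SNORD52 on chr6:31834916-31839761, measured 83.5 and 82.1 CPM in the controls and 49.98 and 59.2 in OE_CBX7. It fell 1.52-fold, from 82.8 ± 0.979 to 54.6 ± 6.52 CPM (SD, n = 2; log2 fold change -0.60, SE 0.12, edgeR adjusted p = 0.00181), and the call held without any 1 library. The controls were close together and the OE_CBX7 libraries further apart, with no overlap.

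SNHG15 and SNHG12 fell less firmly. SNHG15, the host of SNORA9 at chr7:44983023-44986696, measured 40.6 and 46.6 CPM in the controls and 25.6 and 32.7 in OE_CBX7 (43.6 ± 4.22 against 29.2 ± 5.04 CPM, SD, n = 2; log2 fold change -0.58, SE 0.14, edgeR adjusted p = 0.00786). The lines did not overlap. Its call was lost without control library 2 (log2 fold change -0.47, edgeR adjusted p = 0.0660) and without OE_CBX7 library 1 (-0.41, edgeR adjusted p = 0.140). SNHG12, at chr1:28578538-28582983 with SNORA16A, SNORA44, SNORA61 and SNORD99, measured 19.9 and 18.8 CPM in the controls and 12.95 and 15.3 in OE_CBX7 (19.4 ± 0.786 against 14.1 ± 1.67 CPM, SD, n = 2; log2 fold change -0.46, SE 0.15, edgeR adjusted p = 0.0378). That call was lost in each of the 4 fits without 1 library: edgeR adjusted p = 0.104 and 0.0581 without control libraries 1 and 2, and 0.344 and 0.0695 without OE_CBX7 libraries 1 and 2. It was also lost when libraries were scaled by their totals (edgeR adjusted p = 0.0661). TRNAU1AP, which overlaps SNHG12, measured 12.7 and 10.1 CPM in the controls and 8.62 and 8.48 in OE_CBX7 (log2 fold change -0.42, SE 0.18, edgeR adjusted p = 0.112).

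The plot of called members sets the 4 libraries side by side. In each of the 10 genes the lines do not overlap, as in 62.8% of all tested genes. The genes were called from these same libraries, so this adds no support to the calls.

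**Figure D2:**
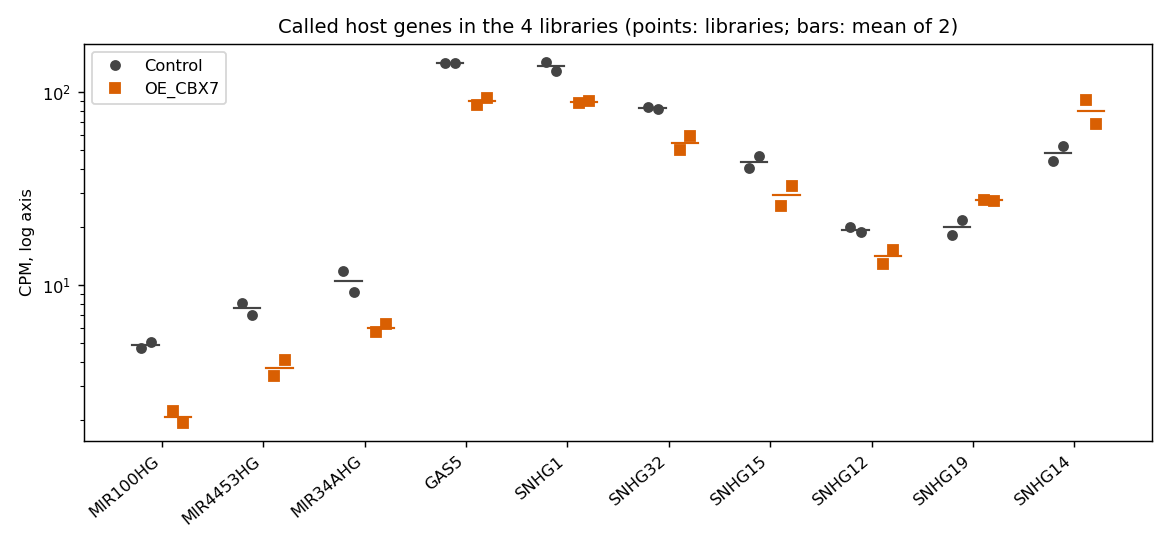
CPM on a log axis (y) of the 10 called host genes (x) in the 2 control libraries (circles) and the 2 OE_CBX7 libraries (squares), with bars at the mean of 2. The OE_CBX7 libraries lie below both controls in 8 genes and above both in SNHG19 and SNHG14.

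SNHG14 was the host with the largest rise among called members. It is the long transcript of the imprinted Prader-Willi region on chromosome 15 (chr15:24823608-25419462, plus strand), with 83 annotated snoRNAs in its span, most of them SNORD115 and SNORD116 copies. Its level was 44.1 and 52.6 CPM in the controls and 91.4 and 68.7 in OE_CBX7. The OE_CBX7 libraries were spread widely, and both lay above the controls. It rose 1.66-fold, from 48.4 ± 6.01 to 80.05 ± 16.1 CPM (SD, n = 2; log2 fold change 0.73, SE 0.14, edgeR adjusted p = 0.00222). Without 1 library the log2 fold change ran from 0.51 to 0.93, and the call held each time.

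The 7 other tested genes that overlap the SNHG14 span had fitted changes above 0. Of them 1 was called higher, beside 10.5% called higher over all tested genes. PWAR5, a non-coding transcript of the region, measured 3.30 and 2.29 CPM in the controls and 7.85 and 7.07 in OE_CBX7, a rise with a log2 fold change of 1.41 (SE 0.25, edgeR adjusted p = 0.00101). SNRPN, which encodes a spliceosomal Sm protein, measured 21.2 and 26.0 CPM in the controls and 27.0 and 32.6 in OE_CBX7 (log2 fold change 0.34, SE 0.14, edgeR adjusted p = 0.100). Without 1 library its log2 fold change ran from 0.20 to 0.50, the highest without control library 2. SNURF, which shares its locus with SNRPN, measured 9.33 and 8.05 CPM in the controls and 11.3 and 28.1 in OE_CBX7 (log2 fold change 1.18, SE 0.56, edgeR adjusted p = 0.275). OE_CBX7 library 2 stood apart for SNURF. Without 1 library the log2 fold change of SNURF ran from 0.39 to 1.69, the highest without OE_CBX7 library 1.

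The remaining genes of that span were not called: PWARSN at a log2 fold change of 1.05 (SE 0.46), PWAR6 at 0.91 (SE 0.35) and IPW at 0.31 (SE 0.18), with edgeR adjusted p = 0.115, 0.0772 and 0.241. UBE3A, the ubiquitin ligase gene that overlaps SNHG14 from the opposite strand, measured 81.3 and 71.3 CPM in the controls and 86.0 and 78.0 in OE_CBX7 (log2 fold change 0.10, SE 0.11, edgeR adjusted p = 0.573). The UBE3A levels of the 2 lines overlapped. Because these spans overlap SNHG14, their counts are not independent of it.

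**Figure D3:**
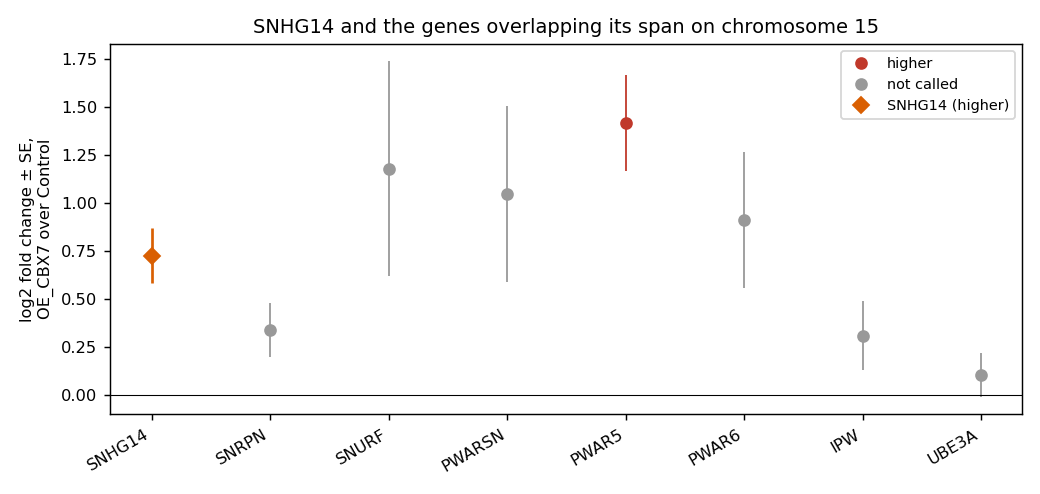
Fitted log2 fold change ± SE of OE_CBX7 over control (y axis) for SNHG14 and the 7 tested genes that overlap its span (x axis), from edgeR with 2 libraries per group. SNHG14 at 0.73 and PWAR5 at 1.41 were called higher, and UBE3A at 0.10 lies nearest to 0.

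SNHG19, the host of SNORD60 at chr16:2154782-2155358, measured 18.1 and 21.9 CPM in the controls and 27.7 and 27.4 in OE_CBX7. It rose 1.38-fold, from 19.995 ± 2.67 to 27.5 ± 0.220 CPM (SD, n = 2; log2 fold change 0.46, SE 0.14, edgeR adjusted p = 0.0234). The call was lost without control library 1 (log2 fold change 0.33, edgeR adjusted p = 0.113), without OE_CBX7 library 1 (0.46, edgeR adjusted p = 0.131) and without OE_CBX7 library 2 (0.48, edgeR adjusted p = 0.0868). TRAF7, which starts 424 bp away on the opposite strand, measured 76.3 and 88.9 CPM in the controls and 97.5 and 89.4 in OE_CBX7 and was not called (log2 fold change 0.18, SE 0.11, edgeR adjusted p = 0.293).

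Several well-measured hosts did not pass the test. Among snoRNA hosts, SNHG29 measured 369 and 400 CPM in the controls and 341 and 367 in OE_CBX7 (log2 fold change -0.12, SE 0.10, edgeR adjusted p = 0.416). SNHG5 measured 175 and 194 CPM against 177 and 210, with the lines overlapping (0.068, SE 0.11, edgeR adjusted p = 0.713). SNHG6 was at 126 and 135 CPM against 103 and 117 (-0.24, SE 0.11, edgeR adjusted p = 0.123), and SNHG16 at 88.8 and 97.0 against 75.0 and 81.4 (-0.25, SE 0.11, edgeR adjusted p = 0.116). Both lay lower in OE_CBX7 without overlap, and neither was called.

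Among microRNA hosts, MIR1915HG came nearest to a call, at 14.5 and 17.4 CPM in the controls and 20.2 and 21.9 in OE_CBX7 (log2 fold change 0.40, SE 0.15, edgeR adjusted p = 0.0614). Without 1 library its log2 fold change ran from 0.28 to 0.55, and it was called in 6 of the 11 alternative fits. MIR22HG, host of miR-22, was at 12.4 and 9.47 CPM against 11.6 and 11.7, so the lines overlapped (0.083, SE 0.18, edgeR adjusted p = 0.796). MIR31HG was at 11.3 and 11.5 CPM against 10.2 and 10.4 (-0.15, SE 0.16, edgeR adjusted p = 0.566). MIRLET7BHG was at 5.47 and 4.89 CPM against 6.06 and 5.07 (0.10, SE 0.23, edgeR adjusted p = 0.805).

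A further 4 members were named after their values were seen, since their libraries disagreed or a setting moved their call. MIR17HG, host of the miR-17-92 cluster, held 539 and 271 counts in the controls and 266 and 295 in OE_CBX7 (log2 fold change -0.74, SE 0.28, edgeR adjusted p = 0.0697). Without 1 library its log2 fold change ran from -1.03 to -0.38, and it was called in 2 of the 11 alternative fits. MIR29B2CHG held 130 and 57 counts against 149 and 312, with OE_CBX7 library 2 far above the rest (1.10, SE 0.44, edgeR adjusted p = 0.0859). Its change ran from 0.45 to 1.60 without 1 library, and it was called in 2 of the 11 alternatives. SNHG31 held 104 and 90 counts against 13 and 52 (-1.82, SE 0.66, edgeR adjusted p = 0.0588). Its change ran from -3.16 to -1.13 without 1 library, and it was called in 5 of the 11 alternatives. MIR3142HG held 24 and 0 counts against 22 and 0, so its fitted change says nothing of a direction.

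The rows of the carried RNAs were far thinner than those of their hosts. Of 51 microRNAs annotated inside members, 37 held a count and 1, MIR3936, was tested; the largest sum over the 4 libraries was 81 counts. The microRNAs inside MIR100HG summed to 2, 0, 1 and 3 counts in control 1, control 2, OE_CBX7 1 and OE_CBX7 2. MIR34A held 1 count in all, and MIR4453 held 1 in each library. With so few counts, the sequences above show what the hosts encode and not what was expressed.

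Of 141 annotated snoRNAs and small Cajal body RNAs inside members, 114 held a count and 43 were tested. EdgeR called 0 of them, beside 24.4% of all tested genes called in either direction. At an unadjusted p under 0.05, 1 was lower, and DESeq2 and limma-voom called 0. Of the 43 tested rows, 29 had a fitted change below 0, with a median of -0.18 beside -0.00015 over all tested genes. In GAS5 this held for 8 of the 10 tested snoRNA rows, with a median of -0.72 beside -0.66 for the host. Whether the GAS5 rows differ from the others was not tested. SNORD81 had the smallest p of them, at 1.83 and 1.67 CPM in the controls and 0.929 and 0.765 in OE_CBX7 (log2 fold change -1.05, SE 0.41, edgeR adjusted p = 0.0801). In SNHG1, 5 of the 7 tested rows were below 0, with a median of -0.090 beside -0.62 for the host, and in SNHG14, 1 of 83 was tested. Tested rows in 3 other called hosts had fitted changes opposite to the host's: SNORA16A in SNHG12 at 0.69 (SE 0.74), SNORA9 in SNHG15 at 0.18 (SE 0.65) and SNORD60 in SNHG19 at -0.30 (SE 0.65). In SNHG32, SNORD48 was at 0.030 (SE 0.91) and SNORD52 at -0.56 (SE 0.97). The rows in SNHG14 summed to 52 and 48 counts in the controls and 111 and 86 in OE_CBX7. A count on a snoRNA row can come from unspliced host RNA, and this was not tested.

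**Figure D4:**
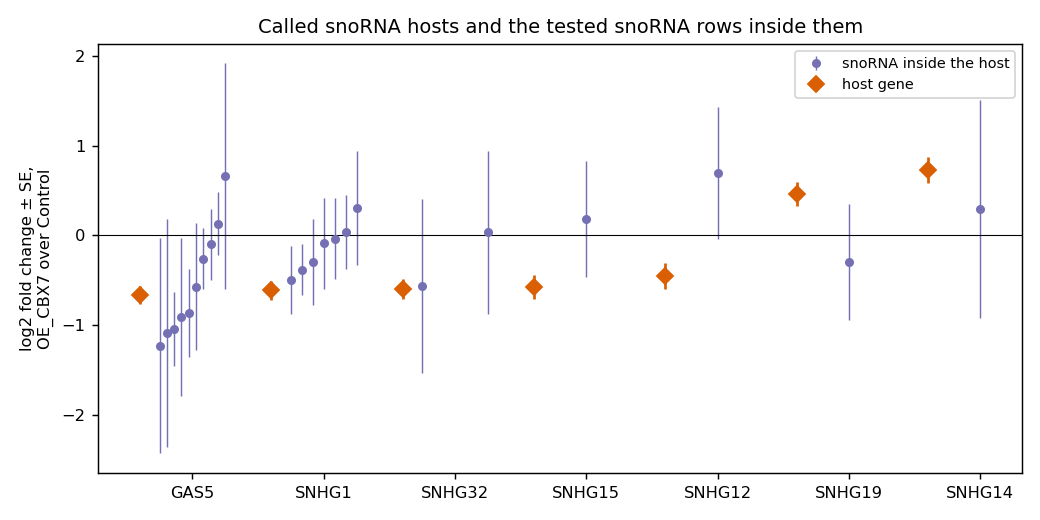
Fitted log2 fold change ± SE of OE_CBX7 over control (y axis) for the 7 called snoRNA hosts (diamonds) and the tested snoRNA rows inside each (circles), grouped by host (x axis), from edgeR with 2 libraries per group. No snoRNA row was called; their SEs run from 0.28 to 1.28, beside 0.10 to 0.15 for the hosts.

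Transcripts that begin with a C followed by pyrimidines (a terminal oligopyrimidine tract) are under translational control by nutrient signals, and several snoRNA hosts are known for such a start. RefSeq gave a start window for 47 of the 54 members. A run of C and then at least 4 pyrimidines on the host's strand, beginning within 5 bases of the annotated start, was present in 10 of 23 snoRNA hosts (43.5%) and 9 of 24 microRNA hosts (37.5%), beside 21.05% of 27305 windows and 22.56% of the windows of tested genes. The following 30 bases, 15 before the start and 15 from it on the host's strand (GRCh38.p14), show 6 called hosts and SNHG5, with and without that run; capitals mark it.
SNHG12 (chr1:28581859-28581888): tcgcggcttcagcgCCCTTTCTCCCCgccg
SNHG32 (chr6:31834901-31834930): ctcgccattttagttCTTTTTgcgaagtgg
SNHG19 (chr16:2155344-2155373): ctcgcccgcccctgtCTTTTCggggtcgag
SNHG5 (chr6:85678719-85678748): gctgcgcacttcggtCTTTTacgtcggcct
GAS5 (chr1:173869031-173869060): tgccatcatgaattcagatgtgtttatttt
SNHG1 (chr11:62855871-62855900): ccggggagattcgttctcatttttctactg
SNHG14 (chr15:24823593-24823622): cagttgtcctcctgcgccgacctcgaatgc
Hosts with the run include SNHG12 and SNHG32, which fell, SNHG19, which rose, and SNHG5, which was not called. GAS5 and SNHG1, which fell, and SNHG14, which rose, have no such run in these windows. The absence says only that those letters are not at the RefSeq start; SNHG12 and MIR100HG show that a window can lie inside the gene's span, away from its outer end.

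Related genes were read from 5 lists. Of 21 snoRNA-protein and assembly factors, 0 rose by edgeR (0 at an unadjusted p under 0.05, and 0 by DESeq2 or limma-voom) and 4 fell, beside 13.9% called lower over all genes, with a median log2 fold change of -0.095. NOP58, a core box C/D protein, measured 216 and 205 CPM in the controls and 145 and 151 in OE_CBX7 (-0.51, SE 0.095, edgeR adjusted p = 0.00145). TGS1, the cap hypermethylase of snoRNAs, fell from 51.2 ± 3.47 to 37.0 ± 1.34 CPM (SD, n = 2; -0.47, SE 0.11, edgeR adjusted p = 0.00910), but adjusted p = 0.101 without OE_CBX7 library 1. NOLC1, a nucleolar chaperone, fell from 372 ± 2.42 to 299.8 ± 0.392 CPM (SD, n = 2; -0.31, SE 0.091, edgeR adjusted p = 0.0222). Its call was lost in each fit without 1 library, at adjusted p = 0.0576 and 0.0577 without control libraries 1 and 2 and 0.142 and 0.147 without OE_CBX7 libraries 1 and 2. The count of lower calls in this list was 2 without control library 1, 1 without OE_CBX7 library 1 and 2 without OE_CBX7 library 2.

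Of 23 microRNA-processing and Argonaute genes, 0 rose by edgeR (0 at an unadjusted p under 0.05, and 0 by DESeq2 or limma-voom) and 1 fell, beside 13.9% called lower over all genes, with a median of -0.12. DROSHA, the nuclear microRNA nuclease, measured 97.3 and 98.6 CPM in the controls and 80.7 and 76.8 in OE_CBX7 (-0.32, SE 0.10, edgeR adjusted p = 0.0415). The call was lost with library totals (adjusted p = 0.101), without control library 2 (0.0775) and without OE_CBX7 library 1 (0.162) or 2 (0.326). Without either control library the list gave 2 lower calls, and without control library 2 also 1 higher.

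The list of nonsense-mediated decay factors gave 1 higher and 6 lower of 21 tested, beside 10.5% higher and 13.9% lower over all genes. Its median was -0.26. It also holds the general RNA decay enzymes XRN1, DCP2 and DCPS, each of them called, so its counts are not of nonsense-mediated decay alone. XRN1, the exonuclease that degrades decapped RNA, measured 79.5 and 58.8 CPM in the controls and 33.0 and 26.4 in OE_CBX7 (-1.22, SE 0.16, edgeR adjusted p = 9.6e-05). UPF3B, which links the exon junction complex to decay, fell from 51.6 ± 3.34 to 39.4 ± 1.81 CPM (SD, n = 2; -0.39, SE 0.11, edgeR adjusted p = 0.0233). The UPF3B call was lost with library totals (adjusted p = 0.0539), without control library 1 (0.0942) and without OE_CBX7 library 1 (0.0928) or 2 (0.237). DCPS, a scavenger decapping enzyme named after its value was seen as the member that rose, had a log2 fold change of 0.36 (SE 0.12, edgeR adjusted p = 0.0429). Its call was lost in each fit without 1 library: adjusted p = 0.0889 and 0.0809 without control libraries 1 and 2, and 0.367 and 0.0767 without OE_CBX7 libraries 1 and 2. The list's count of lower calls was 2 without OE_CBX7 library 1, 2 without OE_CBX7 library 2 and 2 with library totals.

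Protein-coding snoRNA hosts outside the ribosomal proteins gave 0 higher by edgeR (0 at an unadjusted p under 0.05, and 0 by DESeq2 or limma-voom) and 9 lower of 30 tested, beside 13.9% lower over all genes, with a median of -0.050. TAF1D, a subunit of the RNA polymerase I selectivity factor, measured 116 and 100.2 CPM in the controls and 59.3 and 58.9 in OE_CBX7 (-0.87, SE 0.11, edgeR adjusted p = 6.7e-05). RNF149, a membrane ubiquitin ligase, was at 77.3 and 58.4 CPM against 41.9 and 44.3 (-0.65, SE 0.13, edgeR adjusted p = 0.00259). EIF4A2, a translation initiation helicase, was at 225 and 193 CPM against 146 and 155 (-0.48, SE 0.10, edgeR adjusted p = 0.00438). DKC1, the pseudouridine synthase, stands in this list and in that of snoRNA-protein factors. Without OE_CBX7 library 2 the list gave 5 lower calls.

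Ribosomal protein genes with snoRNAs in their introns gave 0 calls by edgeR among 27 tested, beside 24.4% called in either direction over all genes. At an unadjusted p under 0.05, 1 was higher and 0 lower, and DESeq2 and limma-voom each called 1 higher. The median of the list was 0.069. RPL4 measured 2229 and 2315 CPM in the controls and 2260.5 and 2499 in OE_CBX7 (0.067, SE 0.093, edgeR adjusted p = 0.670). RPL13A measured 1747 and 1984 CPM against 1952 and 2035 (0.096, SE 0.096, edgeR adjusted p = 0.532). Both genes overlapped between the lines. Without control library 2, 1 gene of the list was called higher. The plot of host classes and related lists sets these medians beside each other.

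**Figure D5:**
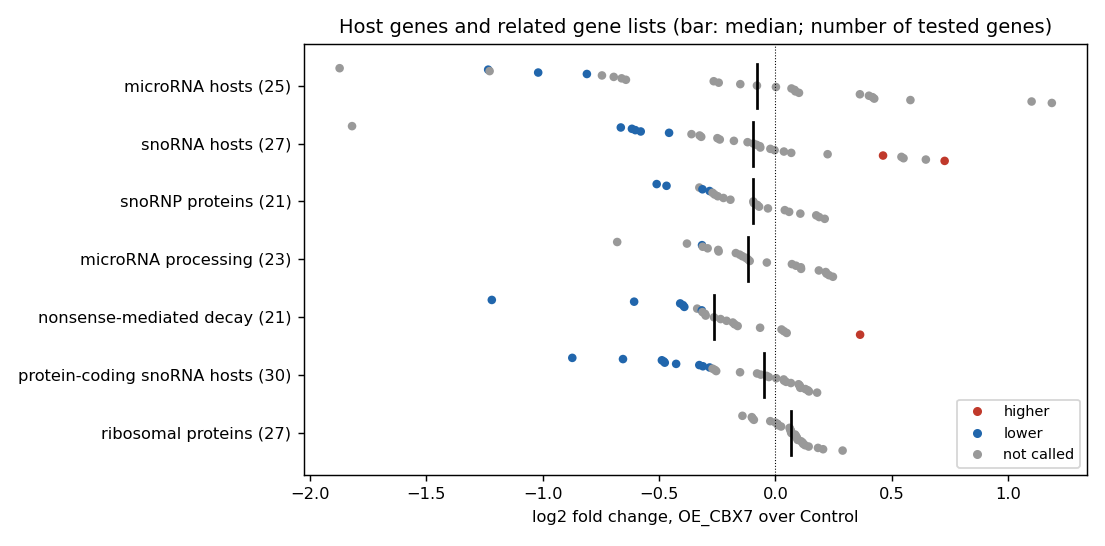
Fitted log2 fold change of OE_CBX7 over control (x axis) for each tested gene (points) of the 2 host classes and the 5 related lists (y axis, with the number tested), with a bar at each median and colour for the edgeR call. Medians run from -0.26 for nonsense-mediated decay factors to 0.069 for ribosomal proteins, and the host classes spread more widely than the ribosomal proteins.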

How the data were processed

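RNA sequencing of 4 A549 libraries, 2 per line, was analysed from the authors' deposited table of 1 estimated count per gene and library, keyed by symbol. The build was hg38 and the tools were StringTie 2.2.1, HISAT2 2.2.1 and DESeq2, per the submitters' processing notes, which give none of them a role. Annotation, strandedness and the counting of shared reads: not given in the sources used here. The estimated counts were already whole numbers in the deposited table, and a 0 may be a failed estimate.

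After filterByExpr and TMM scaling, genes were tested with edgeR 4.0.16 in R 4.3.3 (robust quasi-likelihood test, group as the only term, all 4 libraries). P-values were adjusted by Benjamini-Hochberg over the 17271 tested genes, and the call threshold was 0.05. CPM divides a count by the TMM-scaled library total. SEs are the size of the log2 fold change over the square root of its F value. A floor of 3 counts was 0.0320 to 0.0440 CPM. Alternatives were DESeq2 1.42.0, limma-voom (limma 3.58.1), other scalings and filters, a replicate block and leaving out each library.

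Hosted RNAs, neighbours (starts within 1 kb on opposite strands, or overlapping spans, measured from the ends of gene spans) and positions came from RefSeq on GRCh38, the assembly of hg38; 53 of 54 members had a position. A hosted RNA with no strand in the tables was taken to lie on its host's strand.

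Members and lists were chosen with earlier results of these data known. The text names every called member, the 4 uncalled members of each class with the highest mean CPM, members at the 20-count limit, CBX7, up to 3 called genes per list by smallest p (the 2 with the highest CPM where none was called), and neighbours and hosted rows of called members. Other names were chosen after their values were seen. A gene that this rule selects is not reported here.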

Additional observations from a re-analysis of the deposited data

How the results depend on the processing

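All 10 called members kept their direction under all 11 alternatives. Scaling by library totals shifted the median of all genes by 0.066 and gave 2486 higher and 2033 lower calls (55.0% higher, against 43.0% with 1809 and 2399). Leaving out 1 library gave 1021 to 1790 higher calls over all genes, with 1021 without OE_CBX7 library 1 and 1121 without OE_CBX7 library 2. MicroRNA hosts called higher numbered 1 with library totals, 1 with no filter, 1 with limma-voom, 1 with the replicate block and 2 with mean counts of at least 50, and 0 to 1 without 1 library. SnoRNA hosts without 1 library gave 1 to 2 higher and 3 to 5 lower. Class medians without 1 library ran from -0.16 to 0.085 for microRNA hosts and from -0.23 to -0.046 for snoRNA hosts. With no filter on low counts the median log2 fold change, microRNA host genes, was 0.013, so its sign depends on the members tested. Same-numbered libraries did not deviate together (correlation 0.0281), so the replicate block stands only here: it added MIR1915HG (log2 fold change 0.41, edgeR adjusted p = 0.0413) and SNHG31 (-2.10, adjusted p = 0.0345), and gave 2100 higher and 2503 lower calls over all genes.

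For the lists, snoRNA-protein factors gave 2 lower with library totals and 1 to 3 without 1 library. MicroRNA-processing genes gave 0 lower with library totals, 3 with no filter, 4 with mean counts of at least 50, 2 with DESeq2, 3 with limma-voom, 2 with the replicate block and 1 to 2 without 1 library, which also gave 0 to 1 higher. Decay factors gave 2 lower with library totals and 10 with DESeq2; without 1 library they gave 0 higher and 2 to 7 lower. Protein-coding hosts gave 5 to 7 lower without 1 library. Ribosomal proteins gave 1 higher with library totals, no filter, mean counts of at least 50, DESeq2, limma-voom and the replicate block, and 0 to 1 without 1 library.

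Fitted changes that changed sign were all of uncalled genes. With library totals SNHG10 was 0.046, SNHG11 0.063, SNHG17 0.00011, SNHG4 0.0017 and ZBTB37 0.015. SNHG11 was 0.0070 with no filter, and MIR570HG was -0.0027 with mean counts of at least 50 and -0.0014 with limma-voom. Without 1 library the ranges were -0.036 to 0.12 for SNHG3, -0.084 to 0.051 for SNHG10, -0.15 to 0.39 for MIR193BHG, -0.26 to 0.50 for MIR762HG, -0.092 to 0.30 for MIR22HG, -0.24 to 0.049 for SNHG30, -0.030 to 0.034 for SNHG11 and -0.14 to 0.026 for SNHG17. They were -0.030 to 0.23 for MIRLET7BHG, -0.068 to 0.081 for MIR570HG, -0.24 to 0.11 for MIR3936HG, -6.54 to 6.33 for MIR3142HG, -0.050 to 0.19 for SNHG5, -0.53 to 0.27 for SNHG26, -0.099 to 1.26 for GAS5-AS1 and -0.14 to 0.037 for ZBTB37. Apart from fewer samples or fewer genes tested, the cause of these moves was not tested. Where 1 library was left out, the lone library of its line was assumed to vary like the other line. With 2 libraries a line, a host that was not called is not shown to be equal in both lines.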

Other observations

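Host genes with a hyphen in the symbol fall outside the naming pattern and entered no count above. Those with a count in any library numbered 4, and any at 0 in every library were not listed. MIR194-2HG held 139 and 99 counts in the controls and 264 and 228 in OE_CBX7 (log2 fold change 0.80, edgeR adjusted p = 0.0950), so both OE_CBX7 libraries lay above the controls without a call. MIR4435-2HG held 3875 and 3253 counts against 4180 and 4067 (log2 fold change -0.046, edgeR adjusted p = 0.822). MIR9-3HG held 62 and 39 counts against 35 and 19 (log2 fold change -1.14, edgeR adjusted p = 0.308). MIR7-3HG held 20 and 0 counts against 0 and 2 and was not tested.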
